A study of Danio rerio with 6 samples.

Results

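The 10 genes described here encode the visual pigments and light-signalling proteins of rod and cone photoreceptors, and they were found by symbol among the 23745 genes of the deposited table. All 10 were present. They comprise 3 rod genes (rho, gnat1 and saga), 6 cone genes (opn1sw1, opn1sw2, gnat2, pde6h, pde6c and arr3a) and crx, which is used by both cell types. The genes were chosen because their values were known to differ between the groups of this experiment, so their levels and fold changes are given as a description, with no test.

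RNA came from sorted liver cells of zebrafish larvae at 6 days post fertilisation, with 2000 hepatocytes in each of 6 samples. The 3 lcat OE samples came from larvae with 2 transgenes, fabp10a:lcat-T2A-mCherry and fabp10a:eGFP, and the 3 CTL samples from larvae with fabp10a:eGFP alone. The fabp10a promoter is active in hepatocytes, and both groups therefore carry the green reporter that was used for sorting. No group carries mCherry without lcat, so effects of lcat, of mCherry and of other differences between the lines cannot be told apart. The experiment asked which transcripts change when overexpression of lcat, a cholesterol-esterifying enzyme secreted by the liver, leads to early fat accumulation there.

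In a photoreceptor, light activates an opsin, which activates the G protein transducin, which in turn switches on the phosphodiesterase PDE6. PDE6 lowers cyclic GMP, and cation channels of the outer segment close. Opsin kinases and arrestins shut the opsin off again. Rods serve dim light with the pigment rhodopsin, and zebrafish cones serve colour vision with separate ultraviolet, blue, green and red opsins. Photoreceptors lie in the retina and the pineal organ, and the liver is not known as a site of these genes.

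The libraries held 23431234 to 24890856 counts in lcat OE and 23336591 to 23695610 counts in CTL. The label was checked on lcat, which was 4.24 higher on the log2 scale in lcat OE (SE 0.20, edgeR quasi-likelihood adjusted p = 1.345e-06, higher in 3 of 3 libraries). The liver label was checked on 31 hepatocyte genes, which held 35.8% to 36.7% of counts in lcat OE and 32.3% to 33.8% in CTL. The 10 photoreceptor genes together held 0.000383% to 0.000625% of counts in lcat OE and 0.00487% to 0.00777% in CTL. The photoreceptor label thus describes what the genes are known for, and not the sorted cells. The labels do not say whether replicates came from separate clutches or sorts, so the spread between samples may be technical. In these bulk samples, fewer cells of a type and less RNA per cell cannot be told apart.

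Photoreceptor transcripts were about an order of magnitude lower in the lcat OE samples. Summed over the 10 genes, levels in CPM, counts scaled to library size with TMM factors, were 5.26, 6.25 and 4.39 in lcat OE 1 to 3, against 50.5, 73.2 and 46.9 in CTL 1 to 3. The means were 5.30 ± 0.931 CPM in lcat OE and 56.9 ± 14.3 CPM in CTL (SD, n = 3 each), a ratio of 10.7 of CTL over lcat OE. For 9 of the 10 genes every lcat OE library lay below every CTL library. That pattern was found in 24.1% of the 14096 genes tested, the opposite one in 23.6%, and nothing is read from the comparison because the genes were picked on these values. The median fitted log2 fold change of the 10 genes was -3.27, beside -0.02 over all genes tested. The filter on low counts kept all 10 genes, but 8 of them passed it with fewer than 3 lcat OE libraries at the cutoff of 0.424 CPM, that is, through their CTL levels.

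**Figure D1:**
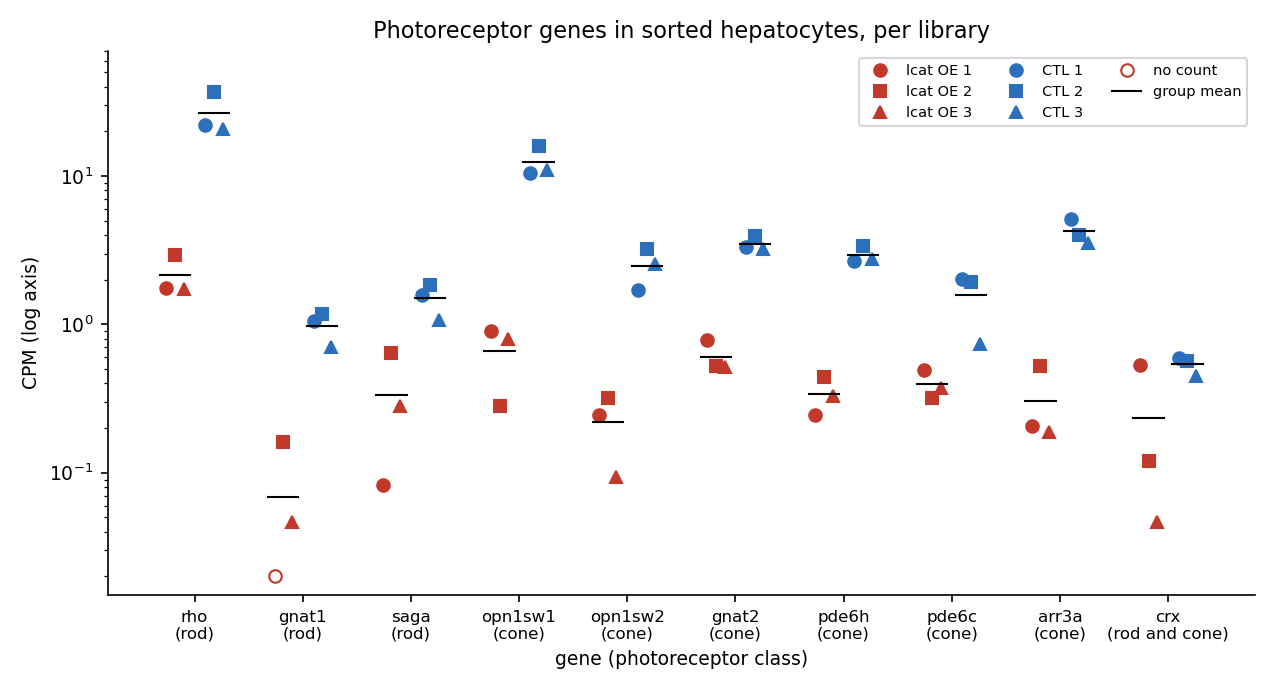
Level of each photoreceptor gene in CPM (log axis) in the 3 lcat OE libraries (red) and the 3 CTL libraries (blue), with a bar at the group mean and an open symbol where no read was counted. All genes but crx show 2 groups that do not overlap. For rho the means are 2.14 CPM in lcat OE and 26.6 CPM in CTL.

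Among the rod genes, rho (NCBI gene 30295), which encodes the rod opsin, had 43, 73 and 37 counts in lcat OE 1 to 3 and 518, 918 and 507 counts in CTL 1 to 3. The groups were far apart, with lcat OE 2 and CTL 2 the highest of their groups. The means were 2.14 ± 0.680 CPM in lcat OE and 26.6 ± 9.06 CPM in CTL (SD, n = 3 each), a fitted log2 fold change of -3.63 (SE 0.31). The gene gnat1 (NCBI gene 140428) encodes the alpha subunit of rod transducin. It had 0, 4 and 1 counts in lcat OE 1 to 3 and 25, 29 and 17 counts in CTL 1 to 3. A count of 0 in lcat OE 1 allows a level of up to 0.123 CPM. The ratio of CTL over lcat OE for gnat1 was 13.8, with an exact 95% counting interval of 5.64 to 43.8. The rod arrestin gene saga (NCBI gene 792319) had 1.71, 15.98 and 6.34 estimated counts in lcat OE and 37.34, 46.15 and 26.00 in CTL. The groups did not overlap, and the fitted log2 fold change was -2.13 (SE 0.55). Both gnat1 and saga were highest in lcat OE 2 among the lcat OE libraries. Without that library the ratio for gnat1 rested on 1 lcat OE count and was 44.6 (7.76 to 1788), and without lcat OE 1 it was 9.05 (3.70 to 28.7). The log2 fold change of saga was -3.04 without lcat OE 2.

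Among the cone genes, opn1sw1 (NCBI gene 30582), the ultraviolet cone opsin gene, had 22, 7 and 17 counts in lcat OE 1 to 3 and 249, 398 and 266 counts in CTL 1 to 3. Here lcat OE 2 was the lowest library, in contrast to rho. The means were 0.660 ± 0.333 CPM in lcat OE and 12.5 ± 3.08 CPM in CTL (SD, n = 3 each), and the fitted log2 fold change of -4.25 (SE 0.34) was the largest in size of the 10 genes. The blue cone opsin gene opn1sw2 (NCBI gene 30435) had 6, 8 and 2 counts in lcat OE and 40, 80 and 62 counts in CTL, with no overlap and a log2 fold change of -3.44 (SE 0.44).

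The next steps of the cone cascade were lower in lcat OE as well. The cone transducin gene gnat2 (NCBI gene 140429) had 19, 13 and 11 counts in lcat OE and 78, 97 and 79 counts in CTL, a log2 fold change of -2.51 (SE 0.28). Its libraries had a coefficient of variation of 25.2% in lcat OE and 10.6% in CTL. The gene pde6h (NCBI gene 393758), for the inhibitory subunit of cone PDE6, had 6.27, 10.71 and 7.18 estimated counts in lcat OE and 62.86, 83.70 and 67.48 in CTL, a log2 fold change of -3.10 (SE 0.32). The catalytic subunit gene pde6c (NCBI gene 393845) had 12, 8 and 8 counts in lcat OE and 48, 48 and 18 counts in CTL. CTL 3 stood close to the lcat OE libraries for pde6c, at 0.740 CPM beside 0.494 CPM in lcat OE 1, and the log2 fold change was -1.97 (SE 0.46). The cone arrestin gene arr3a (NCBI gene 436678) had 5, 13 and 4 counts in lcat OE and 121, 100 and 86 counts in CTL. Its log2 fold change was -3.75 (SE 0.37), and -4.38 without lcat OE 2, the highest of the lcat OE libraries.

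The transcription factor gene crx (NCBI gene 81881), which acts in both rods and cones, was the exception. It had 13, 3 and 1 counts in lcat OE 1 to 3 and 14, 14 and 11 counts in CTL 1 to 3. The groups overlapped, because lcat OE 1 (0.535 CPM) lay between the CTL libraries (0.452 to 0.593 CPM). The fitted log2 fold change was -1.16 (SE 0.68), and -2.56 without lcat OE 1. At 1 to 14 counts per library, the level of crx is known only roughly.

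Rod and cone genes were both lower in lcat OE. The 3 rod genes summed to 2.55 ± 1.03 CPM in lcat OE and 29.1 ± 9.57 CPM in CTL, a log2 ratio of -3.51, and the 6 cone genes to 2.52 ± 0.312 CPM in lcat OE and 27.2 ± 4.69 CPM in CTL, a log2 ratio of -3.43 (SD, n = 3 each). These sums lean on the opsins. Without rho the rod log2 ratio was -2.62, and without opn1sw1 the cone log2 ratio was -2.98. The cone share of all rod and cone counts was 60.9%, 39.2% and 52.1% in lcat OE 1 to 3, with exact binomial 95% intervals of 51.3% to 69.8%, 31.4% to 47.4% and 41.6% to 62.5%. In CTL 1 to 3 it was 50.8% (47.9% to 53.7%), 44.8% (42.5% to 47.2%) and 51.2% (48.3% to 54.2%). The group means were 50.7 ± 10.9% in lcat OE and 48.9 ± 3.6% in CTL (SD, n = 3 each), and the difference was smaller than the spread within lcat OE. These intervals cover counting error only, since reads amplified by PCR are not independent molecules.

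The composition of the photoreceptor counts varied between lcat OE libraries. Of the counts of opn1sw1 and rho together, opn1sw1 made up 33.8% in lcat OE 1 (95% interval 22.6% to 46.6%), 8.8% in lcat OE 2 (3.6% to 17.2%) and 31.5% in lcat OE 3 (19.5% to 45.6%). In the CTL libraries the share was 32.5% (29.2% to 35.9%), 30.2% (27.8% to 32.8%) and 34.4% (31.1% to 37.9%). Thus lcat OE 2 stood apart with an interval that touched none of the other 5, while lcat OE 1 and lcat OE 3 had shares close to those of CTL. In lcat OE, 6 of the 10 genes were highest in lcat OE 2 and 4 in lcat OE 1. In CTL, 7 were highest in CTL 2 and 3 in CTL 1, and CTL 3 was the lowest library for 7.

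**Figure D2:**
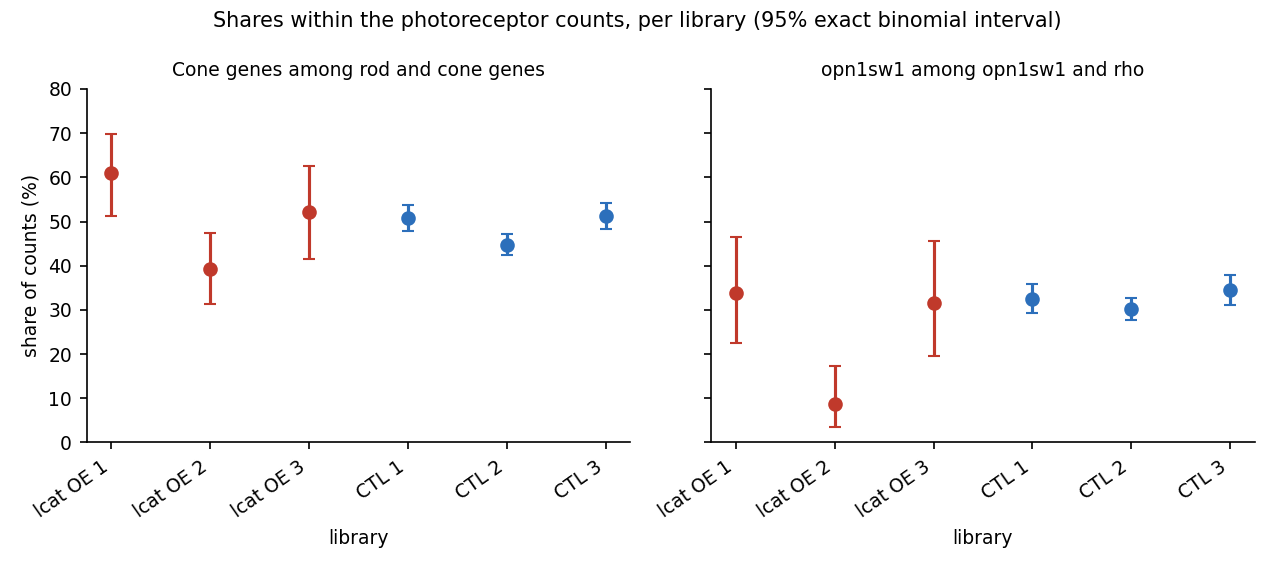
Share of counts (%) with exact binomial 95% intervals in each library, lcat OE in red and CTL in blue. The left panel gives the 6 cone genes among all rod and cone counts (39.2% to 60.9% in lcat OE, 44.8% to 51.2% in CTL), and the right panel opn1sw1 among the counts of opn1sw1 and rho, where lcat OE 2 lies at 8.8% and the other 5 libraries between 30.2% and 34.4%.

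Per unit of transcript length, on the TPM values the authors deposited, the order of levels in CTL began with rho (17.8 ± 6.67 TPM), pde6h (9.38 ± 1.43 TPM) and opn1sw1 (7.27 ± 2.06 TPM; SD, n = 3). The CTL libraries of rho did not overlap those of pde6h, whereas those of pde6h and opn1sw1 overlapped. Then came arr3a, opn1sw2 and gnat2, at 2.48 ± 0.395, 1.88 ± 0.651 and 1.65 ± 0.235 TPM (SD, n = 3), whose libraries overlapped from each to the next. The last 4 were gnat1, saga, pde6c and crx, at 0.520 ± 0.141, 0.433 ± 0.125, 0.323 ± 0.15 and 0.220 ± 0.0265 TPM (SD, n = 3), each also overlapping the next. In lcat OE the first 3 places were the same, with rho at 1.26 ± 0.452 TPM, pde6h at 0.973 ± 0.250 TPM and opn1sw1 at 0.337 ± 0.176 TPM (SD, n = 3), but rho and pde6h overlapped there. Below them every neighbour overlapped the next, from gnat2 at 0.253 ± 0.0851 TPM to gnat1 at 0.0333 ± 0.0416 TPM.

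Other genes of the photoreceptor, listed with earlier results of these data known, were then tested, and their counts are not independent support for the 10 genes. Of 118 such genes matched in 5 lists, 39 passed the filter on low counts, and of these 18 fell in lcat OE and 4 rose (edgeR quasi-likelihood test, adjusted p of 0.05 or less over all 14096 genes). Over all genes tested, 16.3% fell and 16.3% rose, 32.6% in all. The median log2 fold change of the 39 genes was -1.08, beside -0.02 over all genes. The filter matters for this count, because 21 of the 39 passed it with fewer than 3 lcat OE libraries at the cutoff, 10 of them with none, and 5 with fewer than 3 CTL libraries there. The 10 with none were opn1mw1, arr3b, grk7a, rcvrn2, rcvrn3, sagb, gngt1, rs1a, unc119b and irbp. All 10 are among the 18 that fell, and they entered the test only through their CTL levels. Over all 14096 genes tested, 379 passed with no lcat OE library at the cutoff. The 18 falls are therefore not weighed against the 16.3%. With no filter, 23 of the 118 genes fell and 5 rose, beside 10.6% and 10.5% of the 23712 genes tested that way. Of the 79 genes below the filter, 21 were lower without overlap and 1, rdh5, was higher. The share among all genes below the filter was not computed, so nothing is read from this count. Without regard to the filter, all lcat OE libraries lay below all CTL libraries for 42 of the 118 genes and above them for 6, beside 18.7% and 16.6% of all 23745 genes. No read was counted in any lcat OE library for 17 of the 118, and in any CTL library for 2, beside 6.62% and 5.17% of all genes at 0 in that group alone. Summed levels did not fall in every list. The other rod list, led by gnb1a and gnb1b, summed to 99.6 to 122 CPM in lcat OE and 72.7 to 76.7 CPM in CTL. The visual cycle list summed to 136.5 to 141.3 CPM and 118.9 to 133.5 CPM. The cone, structure and transcription factor lists summed lower in every lcat OE library. All 118 genes summed to 299 to 322 CPM in lcat OE and 293 to 323 CPM in CTL.

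Most other cone signalling genes that were tested fell. Of 24 matched, 10 were tested, and 7 fell and 0 rose, beside 16.3% and 16.3% of all genes tested. The median log2 fold change of the 10 tested genes was -2.82. Of those that fell, opn1mw1, arr3b, grk7a, rcvrn2 and rcvrn3 had no lcat OE library at the filter cutoff. They entered the test only through their CTL levels, so the 7 falls are not weighed against the 16.3%. The genes gnb3a, LOC562466 (cngb3.2) and guca1g did not pass (edgeR adjusted p = 0.166, 0.207 and 0.461). Below the filter, guca1e had 20 counts over lcat OE and 16 over CTL, and rgs9bp 20 and 18. These genes were named after their values were seen. Of the 24, 10 were lower without overlap and 0 higher, beside 18.7% and 16.6% of all genes. The green cone opsin gene opn1mw1 had 2, 2 and 2 counts in lcat OE and 29, 28 and 32 counts in CTL, a log2 fold change of -3.77 (SE 0.47, edgeR adjusted p = 0.000257). The cone arrestin gene arr3b fell by 3.17 on the log2 scale (SE 0.43, edgeR adjusted p = 0.000396). The cone transducin subunit genes gngt2b (gamma) and gnb3b (beta) fell by 2.86 and 3.48 on the log2 scale. Of the 14 lcat OE counts of gnb3b, 12 were in lcat OE 1, and without it the ratio of CTL over lcat OE was 52.3 (14.2 to 435), against 11.4 (6.59 to 21.3) with it. The cone opsin kinase gene grk7a had 3 counts in lcat OE and 51 in CTL, a ratio of CTL over lcat OE of 16.5 (95% counting interval 5.34 to 82.8), and 32.1 (5.5 to 1291) without lcat OE 2 or 10.8 (3.5 to 54.3) without lcat OE 1. The recoverin genes rcvrn2 and rcvrn3 also fell, by 2.53 and 2.78. The red cone opsin gene opn1lw2, which had 0, 8 and 0 counts in lcat OE and 10, 81 and 32 counts in CTL, did not pass the filter.

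Of the other rod signalling genes, 4 passed the filter, and 2 of them fell, beside 16.3% of all genes tested. These were the second rod arrestin gene sagb, by 2.98 on the log2 scale (SE 0.74, edgeR adjusted p = 0.0109), and the rod transducin gamma subunit gene gngt1, by 2.75 (SE 0.72, edgeR adjusted p = 0.0133). Each rests on few lcat OE counts, 5 for sagb and 6 for gngt1, and both genes entered the test only through their CTL levels. The ratio of CTL over lcat OE for sagb was 8.36 (3.32 to 27.0) and without lcat OE 2, on 1 count, 27.0 (4.6 to 1092). Without lcat OE 1 gngt1 fell by 2.16, and without CTL 2 the adjusted p of gngt1 was 0.0603 (0.00192 to 0.0603 over its alternatives). The 2 that rose, beside 16.3% of all genes tested, were gnb1a and gnb1b, G protein beta subunit genes that many cell types use. They stood at 53.5 and 57.5 CPM in lcat OE, against 27.8 and 43.6 CPM in CTL. The rise of gnb1a was 0.95 (SE 0.11, edgeR adjusted p = 0.000194), and that of gnb1b, 0.40, was lost with 8 of 14 alternatives, among them 5 of the 6 that leave out a library (adjusted p 0.00533 to 0.301). The opsin kinase genes grk1a and grk1b, listed with the rod genes and named after their values were seen, had no count in lcat OE. They had 8 and 9 counts in CTL. Their mean CPM in CTL did not exceed the floor of 3 counts per library, so no fold is given. Other rod genes below the filter, also named after their values were seen, differed little. The gene pde6b had 4 counts over lcat OE and 2 over CTL, guca1a 2 and 3, and slc24a1 6 and 9. Of the 19 rod genes matched, 6 were lower without overlap and 2 higher, beside 18.7% and 16.6% of all 23745 genes.

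Of 7 tested genes for photoreceptor structure and synapse, 3 fell and 0 rose, beside 16.3% and 16.3% of all genes tested. The retinoschisin gene rs1a fell by 3.57 (SE 0.60), unc119b by 2.81 (SE 0.49) and rp2 by 1.17 (SE 0.22; edgeR adjusted p = 0.00131, 0.00178 and 0.00252). The ratio of CTL over lcat OE for rs1a was 12.8 (5.23 to 40.8), and 22.4 (5.95 to 188) without lcat OE 3. No lcat OE library of rs1a or unc119b reached the filter cutoff, so both entered the test only through their CTL levels. The gene rp2 still had 49 to 76 counts in the lcat OE libraries and is known from many tissues. Named for their CPM and not past the test were ctbp2a, at 3.71 CPM in lcat OE and 3.87 CPM in CTL (adjusted p = 0.843), and the polarity gene crb2b, at 1.15 CPM in lcat OE and 1.83 CPM in CTL (adjusted p = 0.11). The disc rim genes prph2b and rom1b, picked with their values known, were below the filter, with 4 and 2 counts over the lcat OE libraries and 43 and 39 over CTL.

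The visual cycle regenerates the retinal chromophore, and some of its enzymes also handle vitamin A in the liver. Of 9 tested genes 3 fell and 1 rose, beside 16.3% and 16.3% of all genes tested. The retinoid carrier gene irbp, whose protein lies between photoreceptors and pigment epithelium, had 2, 1 and 1 counts in lcat OE and 17, 16 and 13 in CTL, a log2 fold change of -3.37 (SE 0.60, edgeR adjusted p = 0.00186). It entered the test only through its CTL levels. The retinol binding protein gene rbp4l had 8, 47 and 15 counts in lcat OE and 172, 330 and 208 in CTL, a log2 fold change of -3.30 (SE 0.55, edgeR adjusted p = 0.00545) and of -4.25 without lcat OE 2. The fall of rdh8a (-1.20, edgeR adjusted p = 0.0495) was lost with 9 of its alternatives, 5 of them leaving out a library (0.0293 to 0.223). The retinol dehydrogenase gene rdh12 rose by 0.97 (SE 0.24, edgeR adjusted p = 0.0164), a call lost with library totals, with both TPM settings and without CTL 2 (0.000449 to 0.0877). The retinol dehydrogenase gene rdh5, picked with its values known, was below the filter and went the other way, with 17, 8 and 11 counts in lcat OE and 0, 2 and 1 in CTL, a ratio of CTL over lcat OE of 0.081 (0.016 to 0.256). The genes rgrb and lratb, at 53.8 and 26.0 CPM in lcat OE and 43.0 and 23.9 CPM in CTL, did not pass (adjusted p = 0.088 and 0.409).

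Transcription factor genes known from photoreceptors went in both directions. Of 9 tested, 3 fell and 1 rose, beside 16.3% and 16.3% of all genes tested, with a median log2 fold change of -0.19. The T-box genes tbx2b, which specifies ultraviolet cones in zebrafish, and tbx2a fell by 1.08 (SE 0.13) and 1.46 (SE 0.19), samd11 fell by 0.79 (SE 0.20), and isl1 rose by 1.93 (SE 0.45; edgeR adjusted p = 0.000161, 0.000298, 0.0124 and 0.00813). With 253 to 290 counts in the lcat OE libraries and 551 to 658 in CTL, tbx2b was far from 0 in both groups, and it is known from several tissues. The retinoid X receptor genes rxrga and rxrgb did not pass (adjusted p = 0.493 and 0.318). The genes otx5 and otx2, relatives of crx picked with their values known, were below the filter, with 2 and 10 counts over the lcat OE libraries and 16 and 40 over CTL. Another relative, otx1a, went the other way below the filter, with 17, 5 and 1 counts in lcat OE and 1, 3 and 0 in CTL, and its groups overlapped.

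**Figure D3:**
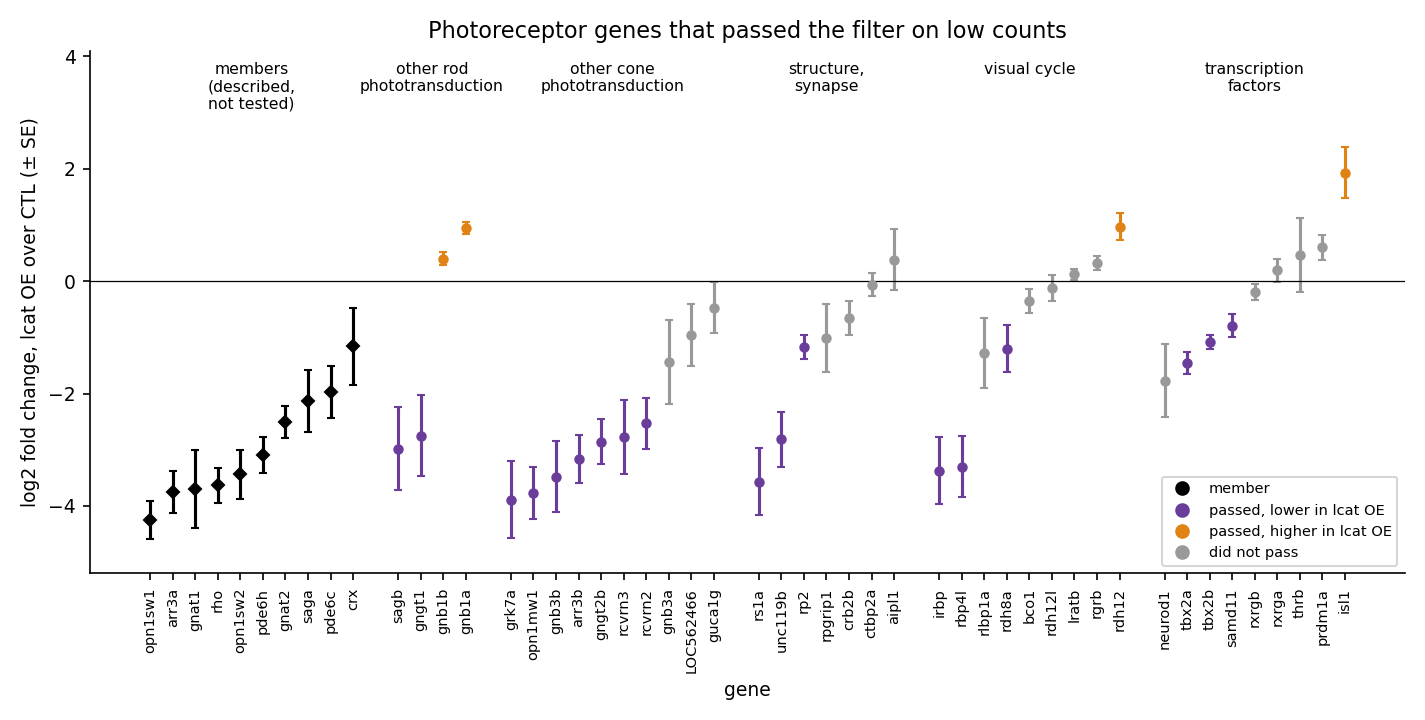
Fitted log2 fold change of lcat OE over CTL with its standard error, for the 10 described genes (black) and for the 39 other photoreceptor genes that passed the filter, coloured by whether they passed the test lower (18) or higher (4) in lcat OE. The other cone signalling genes lie between -0.47 and -3.89, while the 4 genes that rose are gnb1a, gnb1b, rdh12 and isl1.

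Lens and pan-neuronal markers were lower in the same libraries. The summed retinal interneuron and ganglion cell markers overlapped between the groups, although more of the tested genes of that list fell (4) than rose (1). A sum mainly follows the highest genes of its list. Over all genes tested 16.3% fell and 16.3% rose, and the counts of calls below stand beside these shares. How many genes of these lists passed the filter only through their CTL levels was not counted. Of 43 matched lens genes 23 passed the filter, of which 18 fell and 1 rose, with a median log2 fold change of -2.61. They summed to 8.37 to 15.1 CPM in lcat OE and 38.1 to 56.0 CPM in CTL, and the crystallin gene cryba1l1 fell by 2.87 (SE 0.29, edgeR adjusted p = 7.2e-05). In lcat OE, 8 lens genes were at 0, among them cryaa, which had 1 count in CTL, and 2 others, crygm1 and crygs1, were at 0 in CTL. Over all genes, 6.62% were at 0 in lcat OE alone and 5.17% in CTL alone. Of 31 pan-neuronal genes 20 passed the filter, of which 12 fell and 0 rose, with a median of -1.55. They summed to 32.7 to 45.4 CPM in lcat OE and 99.9 to 122 CPM in CTL, and the vesicle gene vamp2 fell by 2.43 (SE 0.44, edgeR adjusted p = 0.00208). Of 25 genes of retinal interneurons and ganglion cells 9 passed the filter, of which 4 fell and 1 rose, with a median log2 fold change of -0.49. The list summed to 44.9 to 59.1 CPM in lcat OE and 49.0 to 53.2 CPM in CTL, and 1 gene, pou4f3, was at 0 in lcat OE. All lcat OE libraries lay below all CTL libraries for 10 of the 25 and above them for 1, beside 18.7% and 16.6% of all 23745 genes. Among the 4 that fell, trpm1b had 1, 1 and 5 counts in lcat OE and 31, 128 and 42 in CTL. Its log2 fold change was -4.71 (SE 0.81, edgeR adjusted p = 0.003). It was -3.86 without CTL 2 and -5.89 without lcat OE 3, and the call was kept in both fits. The call of rbpms2b, another of the 4, was lost without any one of the 6 libraries (edgeR adjusted p = 0.0395 with all, 0.055 to 0.133 without one). Of 20 genes of Müller glia and pigment epithelium 11 passed the filter, of which 4 fell and 0 rose, with a median log2 fold change of -1.25. The list summed to 432 to 536 CPM in lcat OE and 551 to 573 CPM in CTL. Of the 20 genes, 8 were lower without overlap and 0 higher, beside 18.7% and 16.6% of all 23745 genes. The call of the pigment gene pmela, 1 of the 4 that fell, was lost in 4 of the 6 fits without a library (edgeR adjusted p 0.0708 to 0.113, without CTL 1, CTL 2, lcat OE 1 or lcat OE 3). Its ratio of CTL over lcat OE was 6.998 (3.59 to 15.2). Without lcat OE 2 it rested on 1 lcat OE count and was 45.3 (7.87 to 1813). Leaving out lcat OE 1 instead gave 4.59 (2.36 to 9.98). The pigment genes tyr and tyrp1b had 2 counts each in lcat OE and 52 and 65 in CTL. Of the 9 pineal genes 3 were tested. Of these gngt2b and irbp, which are also photoreceptor genes, fell, and 1 was not called. The list summed to 4.28 CPM in lcat OE 1, with 0.699 CPM from gngt2b, and to 5.88 CPM in CTL 3, with 2.43 CPM from gngt2b. A sum without gngt2b and irbp was not computed, so no change of pineal RNA is read from the list. The defining pineal genes exorh and aanat2, named after their values were seen, had 1 count each in lcat OE and 10 and 3 in CTL. The part of eye, neural or pineal RNA in the photoreceptor result was not tested. Which cells the RNA of the pigment genes and of trpm1b came from was not tested either.

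**Figure D4:**
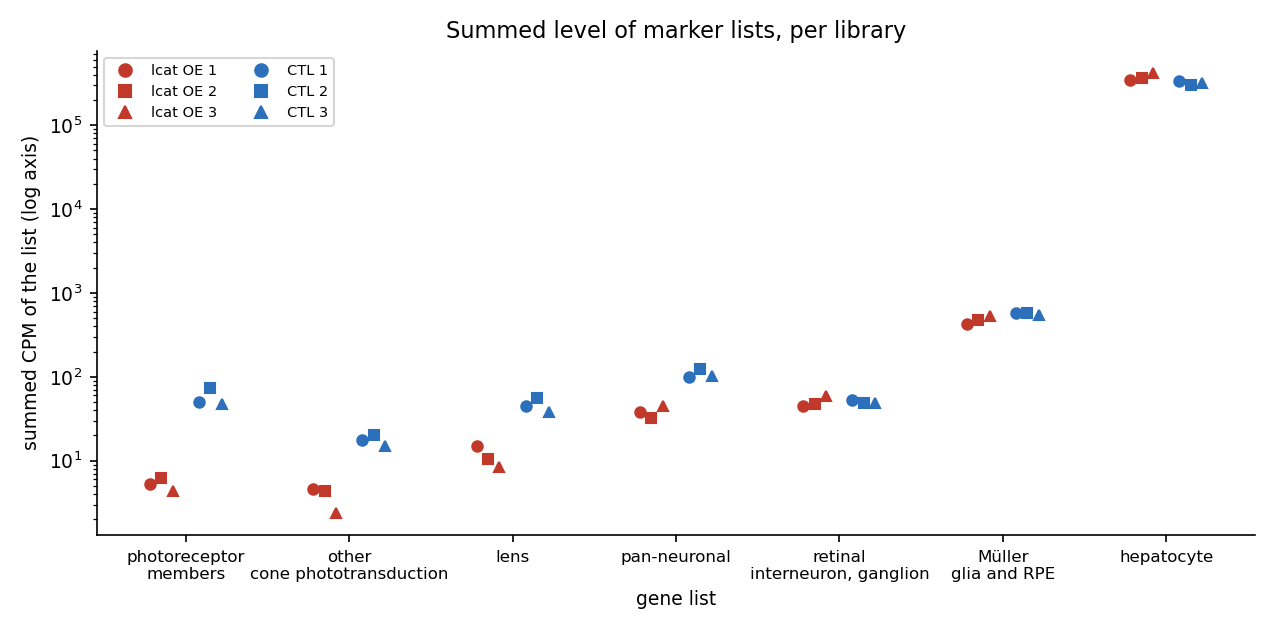
Summed CPM (log axis) of the 10 photoreceptor genes and of 6 gene lists in the 3 lcat OE libraries (red) and the 3 CTL libraries (blue). The photoreceptor genes, the other cone genes, the lens genes and the pan-neuronal genes are lower in every lcat OE library than in any CTL library. Of the other photoreceptor lists only the cone list is shown. The other rod and visual cycle lists, not shown, sum higher in every lcat OE library, and the structure and transcription factor lists lower. The retinal interneuron and ganglion cell list overlaps (44.9 to 59.1 CPM in lcat OE, 49.0 to 53.2 CPM in CTL), although more of its tested genes fell than rose. The glia and pigment epithelium list lies just below CTL, and the hepatocyte list lies between 304300 and 422000 CPM throughout.

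Of 23 non-visual opsin genes 3 passed the filter, and 2 of them fell and 0 rose, beside 16.3% and 16.3% of all genes tested. The gene opn5, a neuropsin, had 1, 1 and 0 counts in lcat OE and 56, 219 and 77 in CTL, a ratio of CTL over lcat OE of 171 (95% counting interval 47.0 to 1418). The related opn8b had 1, 1 and 0 counts in lcat OE and 22, 92 and 35 in CTL, a ratio of 72.4 (19.7 to 603). Their edgeR adjusted p were 0.000895 and 0.000637, and both were lower in 3 of 3 lcat OE libraries. No lcat OE library of either gene reached the filter cutoff of 0.424 CPM, so both entered the test only through their CTL levels. Without CTL 2 the ratios were 98.0 (26.6 to 818) and 42.0 (11.1 to 355). The CTL libraries were uneven for both. CTL 2 was 3.19-fold the mean of CTL 1 and CTL 3 for opn5 and 3.13-fold for opn8b. Among the visual opsins it was 3.76-fold for opn1lw2, 1.73-fold for rho and 1.5-fold for opn1sw1. For gch2, an enzyme gene of pteridine pigment synthesis, that ratio was 2.77, and for trpm1b, named above from the retinal interneuron list, it was 3.4. These CTL ratios have no test, since each rests on 1 library.

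The genes whose levels over the 6 libraries most resembled the summed photoreceptor level were pdzd3a, slc4a7, frmd6, gch2, pxk and mych, with Pearson r of 0.994 to 0.996 on log2(CPM + 1) among 5743 named genes of at least 5 CPM. The r is a description over 6 libraries in 2 groups, and it mainly reflects the difference between the groups: 232 of these genes had r above 0.95. Their sizes of change varied widely, from -0.95 for pdzd3a (6.46 CPM in lcat OE and 12.5 CPM in CTL) to -9.89 for gch2 (0.157 CPM in lcat OE and 153 CPM in CTL).

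Genes next to the photoreceptor genes on the chromosomes were looked at too. In the gene order of the RefSeq assembly GRCz12tu, 18 protein-coding neighbours of the 10 genes were in the table, of which 13 passed the filter, 2 fell (edem1 beside gnat1, by 0.48, and LOC110437775 beside pde6h, by 2.11) and 1 rose (sssca1 beside arr3a, by 0.67). The other 10 did not pass the test, and 32.6% of all genes tested were called in either direction. The median log2 fold change was -0.05, beside -0.02 over all genes tested. Below the filter, erp27, also beside pde6h, had 1, 0 and 4 counts in lcat OE and 9, 25 and 21 in CTL. Its ratio of CTL over lcat OE was 10.7 (4.31 to 34.2). The remaining neighbours below the filter overlapped between the groups. All neighbours were looked up after the values of the 10 genes were known.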

How the data were processed

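The authors deposited 1 table with read counts, TPM, FPKM, a signal of size-factor-scaled counts and group averages for 23745 genes. Read counts, as deposited by the authors, are expected counts, with 10.8% to 11.8% of genes not whole (tolerance 0). The TPM and FPKM columns deposited by the authors are scaled for length and depth. Per the submitters' processing notes, the build was GRCz11 and the tools RSEM 1.3.1, Bowtie2 2.3.4.3, DESeq2 1.4.5 and HISAT, with no roles given. FPKM, signal and averages were not used. Per the labels' protocols, RNA was poly(A)-selected and primed with random primers, with no strand-specific step stated. Overlapping antisense genes may therefore share reads, and so may close paralogs, such as copies among the green opsins or among the red opsins.

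Rounded expected counts went into edgeR 4.0.16 (R 4.3.3), with filterByExpr, TMM factors and a robust two-sided quasi-likelihood test of group without covariates, with Benjamini-Hochberg adjustment over 14096 genes and a threshold of 0.05. Standard errors are the absolute log2 fold change over the square root of F. Alternatives used DESeq2 1.42.0 and limma 3.58.1. The fit was tested on simulated data, with changes put only into genes above a minimum mean count. That test does not speak for genes of lower counts. No 2 replicates agreed within sampling noise (chi-square over its degrees of freedom was 11.7 to 37.7).

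The 10 genes and all lists were chosen with earlier results of these data known. Of 334 listed names, 310 were matched; the rest were not analysed here. Besides the 10 genes, the text names lcat, up to 4 genes per list with the smallest p past the threshold, up to 3 of the highest level in each photoreceptor list, the 6 most alike genes, and others said to be picked with their values known or seen; some genes of the rule are left out. The recoverin genes were named after their values were seen. A planned look at promoter motifs was not run, and no sequences are given.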

Additional observations from a re-analysis of the deposited data

How the results depend on the processing

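No direction reversed under any alternative, for the 10 photoreceptor genes, for the 22 other photoreceptor genes that passed or for lcat (4.02 to 4.44). Of 132 values for the 10 genes, 17 counted as moved, not all of them beyond the spread between replicates. For gnat1, -3.70 became -3.12 without lcat OE 1, a move smaller than its SE of 0.70. For the other photoreceptor genes (293 values), 22 calls were lost, all in gnb1b, rdh8a, rdh12 and gngt1. The median log2 fold change of the 10 genes was -3.27, and -1.19 on log2(TPM + 1) and -2.65 on log2(TPM + 0.1), where the pseudocount shrinks low genes; leaving out each library gave -3.57 to -3.01, and with at least 5 CPM in 3 libraries no such median is given, since most of the genes lie below that level in CTL or lcat OE. The log2 ratio of lcat OE over CTL was -3.51 for summed rod genes and -2.62 without rho, -3.43 for summed cone genes and -2.98 without opn1sw1, and for crx -1.20, with -2.68 to -0.71 when a library was left out. Of the other photoreceptor genes 18 fell and 4 rose; 4 fell and 3 rose with at least 5 CPM in 3 libraries, where 12 were tested, and 2 rose with library totals and on both TPM settings, while leaving out each library gave 17 to 22 and 3 to 5. Over all genes 2293 rose and 2303 fell; 1335 rose and 1369 fell with at least 5 CPM, and 1367 and 1344 rose on log2(TPM + 0.1) and log2(TPM + 1). Of the calls, 49.9% were higher in lcat OE, 38.8% with library totals and 30.8% on either TPM setting, where the median of all genes was -0.11, -0.18 (pseudocount 0.1) and -0.09 (pseudocount 1), against -0.02. No pairing by replicate number was seen (correlation of deviations -0.05 to 0.02 for equal numbers), which cannot exclude one with 3 libraries per group. With the replicate block 2040 genes rose and 2152 fell, and of the other photoreceptor genes 4 rose and 18 fell. The depth limits genes such as crx and gnat1, with 0 to 29 counts per library.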
